A study of Rattus norvegicus with 24 samples.

Results

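The comparison described here set the right ventricle of rats after monocrotaline, whatever the outcome, against the control right ventricle. It used 18 of the 24 arrays of the study: the 6 right ventricle samples labelled HYP and the 6 labelled CHF, pooled into 12, against the 6 labelled CON. All were labelled day 14. CON is read as the control, and HYP and CHF as the compensated and the decompensated hypertrophy that the title of the study ties to an injection of monocrotaline. The labels give no strain, age or sex of the rats, no dose of monocrotaline and no treatment of the controls. The labels name the ventricle but not which part of it was taken, and nothing states that each sample came from a separate animal. The p-values therefore cover the spread between samples alone, and that spread may be technical. The other 6 arrays, 2 left ventricle samples per condition, enter 1 comparison near the end.

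Monocrotaline is a plant alkaloid whose metabolites injure the vessels of the lung, so that the right ventricle has to pump against a raised pressure while the left ventricle does not. A loaded ventricle thickens as its muscle cells enlarge, and part of the gene programme of the fetal heart returns. Actin filaments of the adult ventricle are built mainly from cardiac alpha-actin, and the skeletal and smooth muscle actins are among the transcripts known to come back under load. Tropomyosins lie along the actin filament, caveolin 3 shapes the small pits of the muscle cell membrane, and calpains are proteases switched on by calcium.

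Each array held 1 ventricle sample against a common reference pool, and the deposited score of a probe is a standardised ratio between them. A difference is therefore given in array SDs, the spread of all scores on an array, after the median of each array was set to 0, and it is not a fold change. Array medians had lain between -0.147 and 0.217. An array carried between 2162 and 3658 scores of 4803 probes, with a median of 3300 in HYP, 2982.5 in CHF and 3381 in CON. Scores above 0 are read as more RNA in the ventricle than in the pool, a direction that is not settled. The dyes are not given, of 12 genes with a textbook direction under load 5 lay on that side (2 of 6 and 3 of 6, below), and 6 of 153 pairs of right ventricle arrays correlated below -0.3, with the lowest at -0.530. Each of these pairs held CHF array 10 or CHF array 14, so results were repeated with the sign of those 2 arrays turned and with both left out.

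The arrays also fell into 2 kinds that the labels do not explain. In 10 of them the median score lay above 0, and their scores correlated with each other at 0.380 to 0.867. In the other 8 it lay below 0, and these correlated with the first kind at -0.530 to 0.540. Among themselves those 8 correlated at -0.207 to 0.830, with a median of 0.272, so they were less alike than the first kind, whose median was 0.634. The kind was not evenly spread over the groups: 4 of 6 HYP and 4 of 6 CHF arrays had a median above 0, against 2 of 6 CON arrays. Results were therefore also fitted with the kind as a block and in each kind alone, alternatives that were added after the data had been seen.

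Of 2802 features with enough values, 2492 named genes and 310 probes without a single gene name, 19 were higher in the monocrotaline groups and 0 were lower, by limma at a Benjamini-Hochberg adjusted p below 0.05. That is 0.678% of the features, and 169, or 6.03%, had an unadjusted p below 0.05. Of the 19, 17 were named genes: Safb, Tpm3, Capn3, Ocm, Acta1, Maoa, Bdkrb1, Cav3, Acta2, Tpm4, Fgb, Cdk1, Itpka, Pvalb, Dynlt1, Anxa1 and Kcnh5. More than 1 probe stood behind only 2 of the 17, Acta2 and Fgb, and the others rest on 1 probe each. Fitted alone, the Acta2 probes at 0.197 and 0.116 and the Fgb probe at 0.228 did not pass (each adjusted p = 0.968 by limma). The Acta2 probe at 3.60 and the Fgb probe at 2.80 did. All 17 had a value on all 18 arrays. Their differences ran from 0.867 to 3.80 array SDs with a median of 1.98, whereas the median over all features was -0.0929 and 38.2% of features lay above 0. In 10 of the 17 every one of the 12 monocrotaline arrays was above every control array, which held for 12 features, or 0.428%, of all those tested and for 0 in the other direction.

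**Figure D1:**
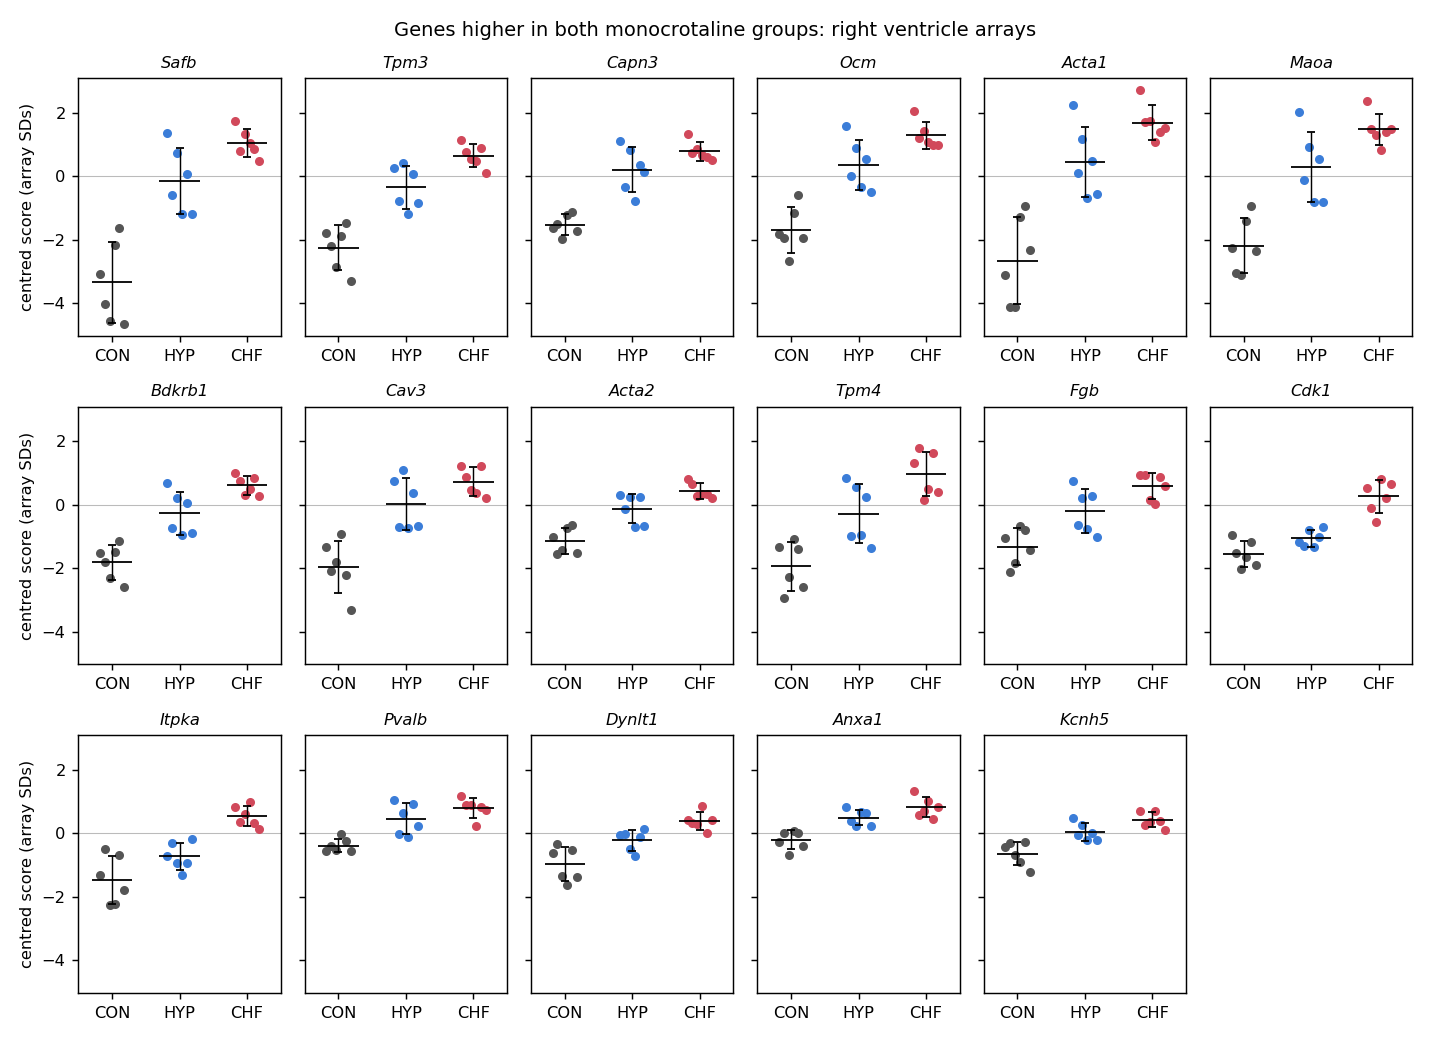
Centred score (array SDs) of the 17 named genes on each right ventricle array, 1 panel per gene, with CON in grey, HYP in blue and CHF in red. Points are the 6 arrays of a group, the long bar is the mean and the whiskers are 1 SD. For Acta1 the control arrays reach up to -0.947 while the monocrotaline arrays start at -0.697. In all 17 genes the HYP mean lies between the CON and CHF means, an order whose share over all features was not counted.

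Promoters of 4 of these genes are shown because their products belong to the contractile apparatus or the muscle membrane and because they hold motifs known from muscle promoters. They were thus picked in part for the motifs. The promoters of Tpm3 and Tpm4, whose products lie on actin filaments, held no CArG box, M-CAT motif or MEF2 box and are not printed. The printed promoters come from RefSeq on the GRCr8 assembly and run from 250 bases before to 50 bases after the start of the gene, 5′ to 3′ on the coding strand. Capitals mark the CArG box (bound by serum response factor), the M-CAT motif (CATTCC or, on the other strand, GGAATG, bound by TEAD factors), the TATA box (TATAAA) and the MEF2 box. The Acta1 promoter lies at chr19:68784145-68784444 on the minus strand, that of Cav3 at chr4:147137743-147138042 on the plus strand, that of Capn3 at chr3:127861340-127861639 on the plus strand and that of Acta2 at chr1:241172454-241172753 on the minus strand.
Acta1: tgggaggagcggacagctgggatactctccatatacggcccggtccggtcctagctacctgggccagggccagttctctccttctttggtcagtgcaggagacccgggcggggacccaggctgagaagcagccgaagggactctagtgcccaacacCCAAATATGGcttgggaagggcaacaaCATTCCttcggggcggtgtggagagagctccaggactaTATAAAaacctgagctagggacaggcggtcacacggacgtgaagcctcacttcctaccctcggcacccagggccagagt
Cav3: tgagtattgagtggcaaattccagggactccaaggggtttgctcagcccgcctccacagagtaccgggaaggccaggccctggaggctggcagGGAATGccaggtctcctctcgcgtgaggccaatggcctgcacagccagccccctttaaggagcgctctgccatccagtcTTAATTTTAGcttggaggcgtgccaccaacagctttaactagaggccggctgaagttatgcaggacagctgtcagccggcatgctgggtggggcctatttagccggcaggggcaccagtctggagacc
Capn3: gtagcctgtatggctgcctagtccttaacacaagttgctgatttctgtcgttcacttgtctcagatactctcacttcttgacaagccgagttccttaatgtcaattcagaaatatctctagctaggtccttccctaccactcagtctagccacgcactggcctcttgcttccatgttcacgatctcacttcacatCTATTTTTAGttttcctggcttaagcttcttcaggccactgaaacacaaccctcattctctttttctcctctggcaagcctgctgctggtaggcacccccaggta
Acta2: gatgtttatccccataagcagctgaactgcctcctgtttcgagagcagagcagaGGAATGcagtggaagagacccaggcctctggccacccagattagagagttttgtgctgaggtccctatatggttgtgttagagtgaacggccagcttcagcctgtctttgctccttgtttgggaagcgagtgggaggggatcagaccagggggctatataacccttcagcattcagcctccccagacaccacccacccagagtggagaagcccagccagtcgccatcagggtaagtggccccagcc

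The Acta1 promoter held CCAAATATGG with its first base at position -94 from the start, CATTCC at -67 and TATAAA at -29. Cav3 held GGAATG at -157 and the MEF2 box TTAATTTTAG at -78, Capn3 the MEF2 box CTATTTTTAG at -55, and Acta2 GGAATG at -196. Promoters were found for 16 of the 17 genes, 18 promoters in all since Tpm3 has 3 starts, and Itpka had no entry. An M-CAT motif was in 6 of the 18 (Acta1, Acta2, Anxa1, Cav3, Fgb and Kcnh5), against 14.2% of all 33469 promoters in the table, and a MEF2 box in 3 (Capn3, Cav3 and Fgb), against 1.87%. A CArG box, searched strictly as CC, 6 of A or T and GG, was in 1, that of Acta1, against 1.64%. Forms that depart from this pattern, such as ccctatatgg and ccttgtttgg in the printed Acta2 promoter, were not counted. The TATA box was in 2 against 14.2%, the GATA motif (AGATAA) in 2 against 11.6%, and the E-box (CANNTG) in 15 against 72.1%, all searched on both strands. A MEF2 box can contain the letters of a TATA box, so such matches can overlap. The matches are a description of letters in the window, with no test.

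Over all features tested, 0.678% were called higher, the share to set beside each list count here and below. Actins and tropomyosins were the list with the most genes called, among lists chosen with earlier results of these data known. Of 21 genes on that list, which also holds the troponins, 11 were tested, 4 were higher and 0 lower, and the median difference was 0.68 against -0.09 over all features (0.27 with the sign of CHF arrays 10 and 14 turned, 0.62 with the kind of array as a block). Acta1, the skeletal muscle alpha-actin, had scores of -0.697, 0.285 and 2.23 (lowest, median and highest) in HYP and of 1.07, 1.62 and 2.71 in CHF. The control arrays were at -4.13, -2.73 and -0.947. No monocrotaline array overlapped the controls, and the difference was 3.73 ± 0.494 array SDs (mean and SE over 12 and 6 arrays; adjusted p = 0.000172 by limma). Acta1 is also a gene from which the direction of the scores was read, so its sign gives no separate support for that direction. Its promoter with the CArG box is printed above.

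Tpm3, a tropomyosin of slow muscle fibres and of the cytoskeleton, was at -1.18, -0.363 and 0.411 in HYP, at 0.086, 0.663 and 1.13 in CHF and at -3.32, -2.03 and -1.48 in CON. All 12 monocrotaline arrays again lay above all 6 controls, and the difference was 2.41 ± 0.298 (adjusted p = 0.000113). Tpm4, a tropomyosin of the cytoskeleton of non-muscle cells, was at -1.35, -0.361 and 0.835 in HYP, at 0.147, 0.897 and 1.77 in CHF and at -2.96, -1.84 and -1.09 in CON. Here 1 of 12 monocrotaline arrays fell among the controls. The Tpm4 difference was 2.28 ± 0.382 (adjusted p = 0.00253), and with the sign of the 2 CHF arrays turned it was 1.71 (adjusted p = 0.241). Acta2, the alpha-actin of smooth muscle, was at -0.717, 0.0512 and 0.295 in HYP, at 0.211, 0.327 and 0.794 in CHF and at -1.56, -1.22 and -0.647 in CON, with 10 of 12 arrays above all controls. Its difference of 1.30 ± 0.215 (adjusted p = 0.00227) is the mean of 3 probes that differed, at 3.60, 0.197 and 0.116.

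Acta2 also stands on the list of smooth muscle and pericyte markers. Of 9 such markers tested it was the 1 called, the median was 0.16 (-0.01 with the sign turned), and the per-array median of the list ran from -0.286 to 0.606 in the monocrotaline groups and from -0.233 to 0.313 in CON. In RNA from tissue, more cells of a type and more RNA per cell cannot be told apart. The members of the actin list that did not pass the test included Tmod1, which caps the actin filament, at 0.883 ± 0.311 (adjusted p = 0.512), Actg1, the cytoplasmic gamma-actin, at 0.677 ± 0.267 (adjusted p = 0.624) and Tnnc2, the troponin C of fast muscle, at -0.700 ± 0.282 (adjusted p = 0.651).

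The membrane and Z disc group gave 2 genes called of 13 tested, Cav3 and Capn3, with a list median of 0.10. Cav3, the caveolin of muscle cells, was at -0.750, -0.142 and 1.11 in HYP, at 0.211, 0.663 and 1.23 in CHF and at -3.33, -1.96 and -0.936 in CON. The groups did not overlap, and the difference was 2.33 ± 0.348 (adjusted p = 0.000686). Capn3, the calpain that binds titin in the sarcomere, was at -0.792, 0.228 and 1.10 in HYP, at 0.500, 0.699 and 1.32 in CHF and at -1.98, -1.57 and -1.12 in CON. The groups did not overlap here either, and the difference was 2.02 ± 0.251 (adjusted p = 0.000113). Both genes carry a MEF2 box in the promoters printed above. Ankrd1, a stretch-responsive protein of the Z disc, was at 1.22 ± 0.359 and did not pass the test (adjusted p = 0.262); its CHF arrays ran from -0.157 to 2.29 and its controls from -0.884 to 0.0035.

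Thick filament genes were not called: 0 of 7 tested passed in either direction, with a median of 0.27 that became -0.24 with the sign of the 2 CHF arrays turned. Mybpc1, the slow skeletal myosin binding protein C, had the largest difference among them at 2.74 ± 0.883, on 6 HYP, 4 CHF and 4 CON arrays (adjusted p = 0.436). With the kind of array as a block it was at 3.37 (adjusted p = 0.0389), with CHF arrays 10 and 14 turned at 0.738 (adjusted p = 0.880) and with both left out at 1.93 (adjusted p = 0.621). Myh6, the fast cardiac myosin heavy chain, was at -0.145 ± 0.585. On the list of fetal and hypertrophy genes, Acta1 and Acta2 were the 2 called of 11 tested, 0 were lower and the median was 0.16, or -0.06 with the kind of array as a block. The natriuretic peptide genes Nppa and Nppb, the usual marks of a stretched ventricle, had too few values to be tested.

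The calcium group held a pair of related buffers. Ocm (oncomodulin) and Pvalb (parvalbumin) belong to the parvalbumin family of small calcium-binding proteins, which soak up calcium in fast muscle, neurons and hair cells. Ocm was at -0.505, 0.278 and 1.58 in HYP, at 0.971, 1.14 and 2.07 in CHF and at -2.66, -1.89 and -0.586 in CON. The lowest monocrotaline array lay 0.080 above the highest control, and the difference was 2.51 ± 0.324 (adjusted p = 0.000156). Pvalb was at -0.119, 0.440 and 1.05 in HYP, at 0.219, 0.856 and 1.16 in CHF and at -0.577, -0.469 and -0.029 in CON. Its difference was 1.01 ± 0.207 (adjusted p = 0.0198), with 11 of 12 monocrotaline arrays above all controls. The Pvalb call ended with the sign turned (0.725, adjusted p = 0.739), with CHF arrays 10 and 14 left out (0.993, adjusted p = 0.0525) and without CON array 17, 19 or 22. Of 28 genes for calcium handling and ion channels tested, these 2 were higher (0.678% over all features) and 0 lower. The median of the list was -0.18, against -0.09 over all features. Atp2a2, the calcium pump of the sarcoplasmic reticulum, was at 0.390 ± 0.394, its inhibitor Pln at -0.341 ± 0.329, the calcium release channel Ryr2 at 0.144 ± 0.256 and Kcnip2, a subunit of the transient outward potassium channel, at 0.978 ± 0.346 (adjusted p = 0.512). None of these 4 passed the test.

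Signalling genes called were Bdkrb1, Maoa and Itpka. Bdkrb1, the bradykinin B1 receptor, which is known to be induced in injured tissue, was at -0.956, -0.338 and 0.670 in HYP, at 0.268, 0.631 and 1.01 in CHF and at -2.61, -1.67 and -1.14 in CON. The groups did not overlap, and the difference was 1.98 ± 0.273 (adjusted p = 0.000247). Maoa, which breaks down noradrenaline and serotonin in the outer membrane of mitochondria, was at -0.828, 0.209 and 2.04 in HYP, at 0.840, 1.43 and 2.37 in CHF and at -3.10, -2.31 and -0.932 in CON. It too had all 12 arrays above the controls, with a difference of 3.07 ± 0.407 (adjusted p = 0.000172). Of 17 receptors and related genes of the adrenergic, angiotensin, endothelin and bradykinin systems tested, these 2 were higher and 0 lower, with a median of -0.02, or 0.13 with the sign turned. Adrb1, the main beta-adrenergic receptor of heart muscle, was at -0.900 ± 0.324 (adjusted p = 0.512).

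Itpka, the kinase that phosphorylates inositol trisphosphate and bundles actin, was at -1.32, -0.815 and -0.172 in HYP, at 0.139, 0.478 and 0.984 in CHF and at -2.27, -1.55 and -0.512 in CON. The HYP arrays overlapped the controls and the CHF arrays did not, and the difference for both groups was 1.37 ± 0.273 (adjusted p = 0.0162). The call ended with the sign turned (1.25, adjusted p = 0.104) and without CON array 19, 20 or 22. It also ended with HYP and CHF fitted as 1 group. Of 13 hypertrophy kinases and calcineurin genes and of 20 growth factors and their receptors tested, 0 were called in either direction, with medians of 0.04 and -0.08, the latter 0.27 with the kind of array as a block.

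Cdk1, the kinase that starts mitosis, was the 1 gene called of 17 cell cycle genes tested. It was at -1.34, -1.10 and -0.713 in HYP, at -0.545, 0.369 and 0.817 in CHF and at -2.03, -1.59 and -0.965 in CON. All 6 CHF arrays and 2 of the HYP arrays lay above the control range. Its difference over both groups was 1.14 ± 0.224 (adjusted p = 0.0144). Cdk1 lost this call without CON array 19 or 22 and with HYP and CHF fitted as 1 group. Its partner Ccnb1 (cyclin B1) was at 1.12 ± 0.338, on 5 HYP, 6 CHF and 4 CON arrays (adjusted p = 0.344), and Ccnd1 (cyclin D1) at 0.898 ± 0.333 (adjusted p = 0.543). The median of the list was 0.22, and 12 of 17 lay above 0, against -0.09 and 38.2% over all features.

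Safb had the largest difference of the features called. It encodes scaffold attachment factor B, a nuclear protein that binds RNA and matrix attachment DNA. It was at -1.20, -0.260 and 1.35 in HYP, at 0.472, 0.958 and 1.75 in CHF and at -4.67, -3.54 and -1.63 in CON. The lowest monocrotaline array lay 0.424 above the highest control, and the difference was 3.80 ± 0.458 (adjusted p = 0.000113). Fgb, the fibrinogen beta chain that the liver secretes for clotting, was at -1.02, -0.213 and 0.745 in HYP, at 0.024, 0.738 and 0.938 in CHF and at -2.12, -1.25 and -0.657 in CON. Its difference of 1.51 ± 0.290 (adjusted p = 0.0116) is the mean of 2 probes at 2.80 and 0.228, and the call ended with the sign turned (1.21, adjusted p = 0.248) and without CON array 19. The alpha chain Fga was at -0.735 ± 0.284 (adjusted p = 0.607). Fgb was the 1 gene called of 19 on the inflammation and cytokine list, whose median was -0.10, or 0.06 with the sign turned.

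The remaining 3 genes had small differences. Dynlt1, a light chain of the dynein motor, was at -0.735 to 0.124 in HYP, 0.013 to 0.857 in CHF and -1.63 to -0.338 in CON, a difference of 1.06 ± 0.221 (adjusted p = 0.0218). Anxa1, a phospholipid-binding annexin known for damping inflammation, was at 0.226 to 0.829 in HYP, 0.435 to 1.32 in CHF and -0.685 to 0.069 in CON, a difference of 0.867 ± 0.184 (adjusted p = 0.0259). Kcnh5, a voltage-gated potassium channel best known from brain, was at -0.229 to 0.489 in HYP, 0.106 to 0.705 in CHF and -1.22 to -0.274 in CON, a difference of 0.875 ± 0.188 (adjusted p = 0.0279). Anxa1 and Kcnh5 did not overlap with the controls, whereas 10 of 12 monocrotaline arrays of Dynlt1 lay above them. The calls of Dynlt1 and Anxa1 ended in 8 of 31 alternatives each and that of Kcnh5 in 13, and leaving out 1 array ended them in 3, 4 and 7 of 18 cases. Anxa1 was the 1 gene called of 17 on the list for remodelling of the cytoskeleton, whose median was 0.18, or -0.09 with the sign turned, and Tuba1b, an alpha-tubulin of the same list, was at 1.03 ± 0.283 (adjusted p = 0.197).

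An exact two-sided permutation test over the 18564 ways to choose 6 of the 18 arrays was run for each of the 17 genes, all with a value on every array. For the 10 genes without overlap it gave 5.39e-05, the smallest p this design allows, which restates that they did not overlap. The largest p among the 17 was that of Cdk1, at 0.00506. The named genes nearest to the threshold that did not pass were Ifrd1 at 0.932 (adjusted p = 0.130), Tuba1b, and Prb1, Clock and Tas2r13 at 1.39, 0.917 and 1.13 (each adjusted p = 0.207). In the other direction the smallest p belonged to Alcam, a cell adhesion protein, at -1.25 ± 0.342 (adjusted p = 0.207), Sdc3, a syndecan, at -0.979 ± 0.285 (adjusted p = 0.245), Klrk1 at -0.984, Inpp4b at -0.837 and Cat (catalase) at -0.530.

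Both outcomes were then set side by side. The mean of the HYP arrays lay between those of CON and CHF for all 17 genes. The choice of these genes favours a HYP mean above CON, and the share of all features with this order was not counted. The median of HYP minus CON over these genes was 1.54 and that of CHF minus CON was 2.31. Both comparisons use the same 6 control arrays, and the genes were chosen on the 2 together, so the likeness of these values is not a result. Taken alone, 8 of the 17 passed in HYP (0.321% of all features were higher there) and 17 of 17 in CHF (0.785%). The 8 were Safb, Tpm3, Capn3, Ocm, Acta1, Maoa, Bdkrb1 and Cav3.

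The size in HYP was 0.268 to 0.752 times that in CHF, with a median of 0.656. Acta1 was at 3.11 ± 0.571 in HYP and 4.35 ± 0.571 in CHF, Cav3 at 1.98 ± 0.402 and 2.69 ± 0.402, and Tpm3 at 1.91 ± 0.345 and 2.91 ± 0.345. The smallest of these ratios was that of Cdk1, at 0.483 ± 0.259 in HYP and 1.80 ± 0.259 in CHF. The difference between CHF and HYP itself was tested: 0 of 2802 features passed by limma, while 119, or 4.25%, had an unadjusted p below 0.05, 62 of them, or 2.21%, higher in CHF. Of the 17 genes 12 had an unadjusted p below 0.05, all higher in CHF, with adjusted p from 0.189 for Cdk1 (1.32 ± 0.259) up to 0.980. Itpka came next at 1.26 ± 0.315, with an unadjusted p of 0.000762.

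**Figure D2:**
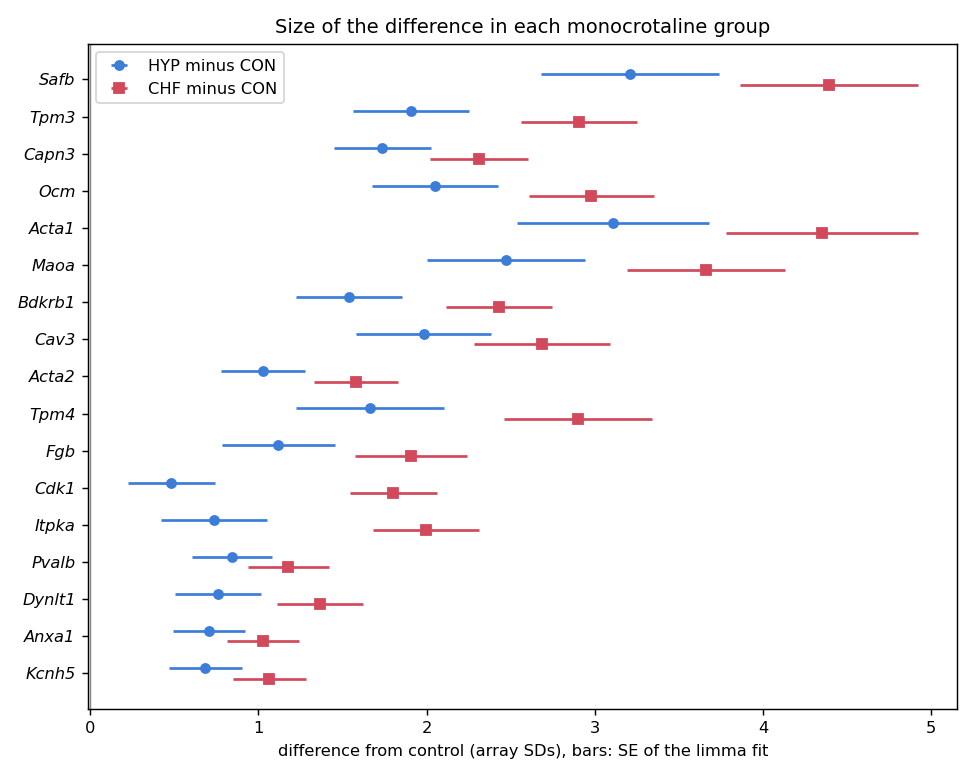
Difference from control (array SDs) of the 17 genes in HYP (blue circles) and in CHF (red squares), 6 arrays each against the same 6 controls, with bars for the SE of the limma fit. Every square lies to the right of its circle, and the circles and squares lie farthest apart for Cdk1, at 0.483 and 1.80.

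Many pairs of the 17 genes varied together from array to array, though not all of them. After the group means were taken away, their scores correlated over the 18 arrays with a median r of 0.600 over 136 pairs, from -0.246 to 0.958. Over all pairs of the 1656 features with a value on every array the median was 0.0401, with quartiles at -0.290 and 0.363. The highest were Tpm3 with Bdkrb1 at 0.958, Acta1 with Maoa at 0.955 and Ocm with Maoa at 0.951. The lowest was Tpm4 with Itpka. Cdk1, Itpka and Dynlt1 were near or below 0 with several of the others, while Itpka with Dynlt1 was at 0.895. With such correlations the 17 are not 17 separate measurements of the response. The cause of the correlations was not tested.

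Metabolic, protein and matrix lists held no gene that passed. Over all features tested, 38.2% lay above 0 and the median was -0.09. Fatty acid uptake and oxidation had 0 of 28 called, 8 above 0 and a median of -0.33, and the citric acid cycle and respiratory chain had 0 of 30 called, 5 above 0 and a median of -0.34. Cpt1b, the carnitine transferase that lets fatty acids into muscle mitochondria, had the lowest difference of all features at -2.64 ± 0.907, on 4 HYP, 4 CHF and 5 CON arrays (adjusted p = 0.512). With the kind of array as a block it was at -0.572 (adjusted p = 0.306), and with the first component of the deviations as a covariate at -1.91 (adjusted p = 0.00595). In each of the 3 groups 1 array lay far from the others. Hadh and Decr1, enzymes of fatty acid oxidation, were at -0.914 ± 0.338 and -0.712 ± 0.294 (adjusted p = 0.541 and 0.673). Cytosolic ribosomal proteins had 0 of 62 called, 5 above 0 and a median of -0.22, the proteasome 0 of 28 and -0.14, glycolysis 0 of 28 and 0.00, heat shock proteins 0 of 19 and 0.10, oxidative stress 0 of 32 and -0.10, and apoptosis 0 of 9 and -0.13. The median over all features was -0.06 with the sign turned and -0.05 with the block. In these 2 settings the list medians stayed below 0 for fatty acid genes (-0.30 and -0.37), the respiratory chain (-0.44 and -0.19) and ribosomal proteins (-0.27 and -0.27). Those of the proteasome (0.04), heat shock (-0.09), glycolysis (-0.13) and apoptosis (0.03) lists changed sign with the sign of the arrays turned.

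Collagen and matrix genes had 0 of 18 called and a median of -0.10, or 0.12 with the block, with Dcn (decorin) at -0.809 ± 0.322, Tnc (tenascin C) at -0.505 ± 0.236, Col3a1 at -0.957 ± 0.869, Col1a1 at -0.197 ± 0.241 and Timp1 at -0.176 ± 0.398.

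Marker lists of other cell types held no called gene except Acta2. The medians were 0.04 for 5 endothelial, -0.41 for 9 fibroblast, -0.09 for 3 macrophage, -0.17 for 3 lymphocyte, -0.24 for 6 adipocyte and -0.09 for 9 nerve markers tested. For 11 cardiomyocyte markers it was -0.27, with 4 above 0 (38.2% over all features), and 0.25 with the block. Since each score is relative to the pool, it does not show how strongly a marker was expressed. The 4 erythrocyte markers had a median of 0.53, and their per-array median ran from -5.82 to -1.93 in CON and from -4.98 to -0.254 in the monocrotaline groups, the widest range of the cell type lists. With the sign of CHF arrays 10 and 14 turned their median was 1.40. With the kind of array as a block the lymphocyte median was 0.45 and the endothelial 0.35, and with the sign turned the endothelial median was -0.22. Their part in the differences above was not tested.

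**Figure D3:**
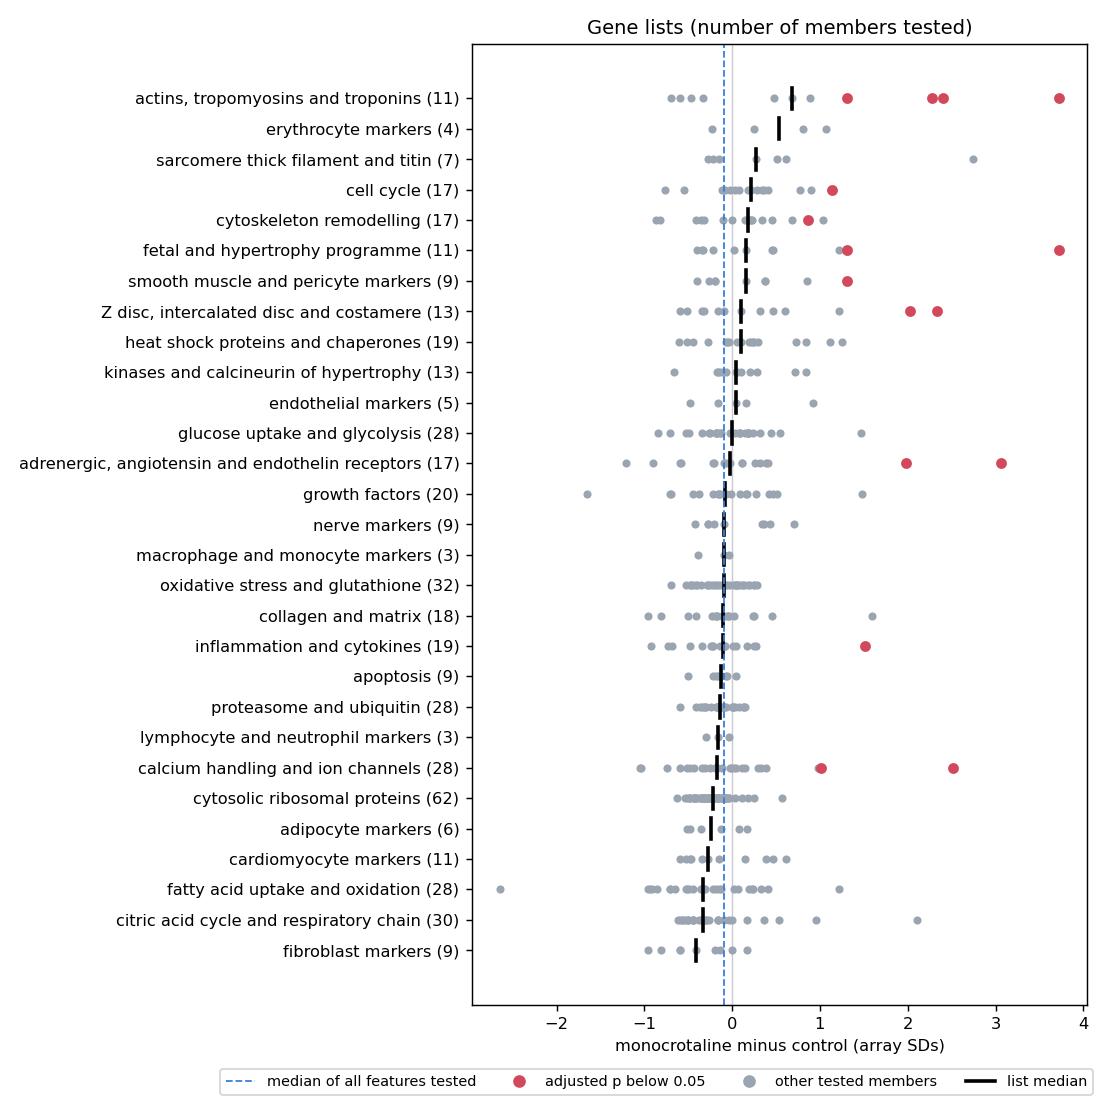
Monocrotaline minus control (array SDs) for the tested members of 29 gene lists, 1 row per list with the number tested in brackets. Red points passed the limma test, grey points did not, black bars are list medians and the dashed line is the median of all features at -0.0929; the list of actins, tropomyosins and troponins has the most red points, 4, and a median of 0.68, which was 0.27 with CHF arrays 10 and 14 turned, below that of the erythrocyte markers at 1.40.

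The genes used to read the direction of the scores did not all lie on the side that textbook knowledge gives them. Of 11 genes that it puts higher under pressure load, 6 were tested: Acta1 and Ankrd1 lay above 0, and Tnc, Timp1, Col1a1 and Col3a1 below. Of 6 that it puts lower, Myh6, Pln and Kcnd2 (at -0.476 ± 0.666) lay below 0, and Kcnip2, Atp2a2 and Ryr2 above. Acta1 was the 1 gene of the 12 tested that passed.

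The same contrast was fitted within each kind of array. The 17 genes were chosen on these same arrays, and for the 10 without overlap any subset keeps the sign, so the signs below are no separate support. With the kind as a block all 17 passed, with a median difference of 2.03. In the 8 arrays with a median below 0 (4 monocrotaline, 4 control) the differences ran from 0.796 to 4.22 with a median of 2.26, and 13 of the 17 passed. In the 10 arrays with a median above 0 (8 monocrotaline, 2 control) they ran from 0.530 to 3.55 with a median of 1.50, and 0 of 2459 features passed, 50 having an unadjusted p below 0.05. Acta1 was at 3.75 with the block, 3.55 in the arrays above 0 and 3.91 in those below. With CHF arrays 10 and 14 turned, 10 of the 17 passed and the median was 1.71; with both left out, 15 passed and the median was 1.94.

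**Figure D4:**
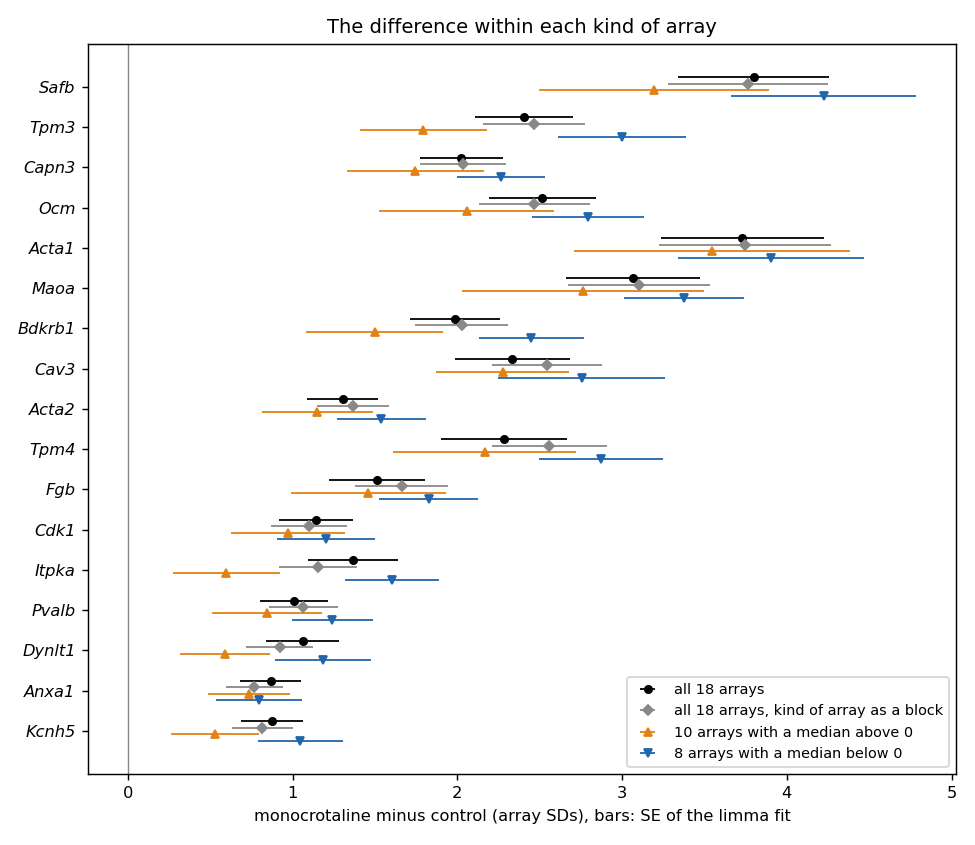
Monocrotaline minus control (array SDs) of the 17 genes over all 18 arrays (black), with the kind of array as a block (grey), in the 10 arrays with a median score above 0 (orange) and in the 8 below 0 (blue), with bars for the SE of the limma fit. The orange points lie between 0.530 and 3.55 and the blue ones between 0.796 and 4.22; the genes were chosen on the same arrays, which fixes the side of 0 for those without overlap.

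The left ventricle of the same study, which monocrotaline does not load directly, gave a comparison of 4 monocrotaline with 2 control arrays. Acta1 was at -3.21 and -1.75 in HYP, at -1.62 and 1.25 in CHF and at -0.850 and 0.410 in CON, so that 1 of the 4 monocrotaline arrays lay above both controls and the other 3 below both. Over the 17 genes the left ventricle difference was below 0 for 14, with a median of -0.590 against 0.03 over all features, from -1.59 for Maoa to 0.581 for Itpka. It was also above 0 for Cdk1, at 0.520, and Dynlt1, at 0.258. In Cdk1 both left CHF arrays, at -0.122 and 0.470, lay above both controls, at -1.23 and -1.05. The left HYP arrays of Cdk1 were at -1.62 and -1.21. The left CHF arrays of Itpka and Dynlt1 also lay above both controls. By limma 0 of 2600 features passed in the left ventricle, and 15, or 0.577%, had an unadjusted p below 0.05.

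Right minus left, the difference between the responses of the ventricles, was above 0 for all 17 genes and passed for 4 of them, with 0.192% of all features larger in the right. It was smallest for Cdk1, at 0.622 ± 0.429 (adjusted p = 0.998 by limma). Maoa differed by 4.66 ± 0.843 (adjusted p = 0.0194), Safb by 4.80 ± 1.005 (adjusted p = 0.0475), Tpm3 by 3.16 ± 0.616 (adjusted p = 0.0255) and Bdkrb1 by 2.96 ± 0.568 (adjusted p = 0.0255). Acta1, at 4.84 ± 1.05, and Capn3, at 2.61 ± 0.559, had adjusted p of 0.0529 and 0.0509. Some ventricles carry the same number in the labels, and with that number as a random block 8 of the 17 passed, among them Acta1, Capn3, Ocm and Tpm4. The right ventricle genes were chosen on the right ventricle arrays, so their difference there is larger by choice, and the left ventricle arrays all had a median below 0.

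**Figure D5:**
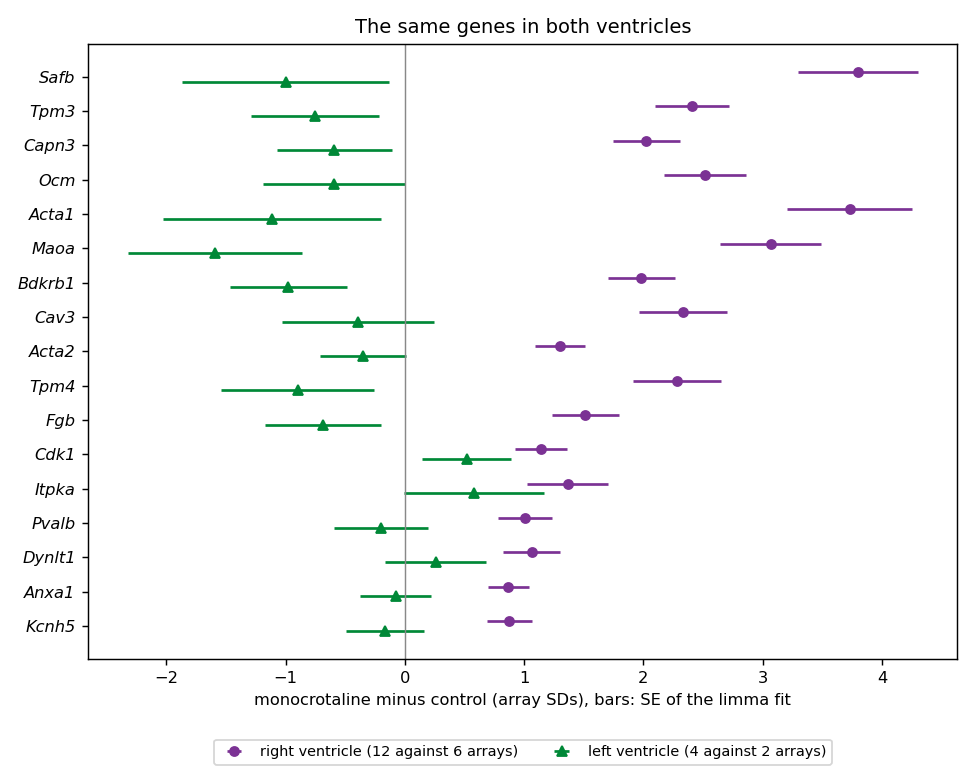
Monocrotaline minus control (array SDs) of the 17 genes in the right ventricle (purple circles, 12 against 6 arrays) and in the left (green triangles, 4 against 2 arrays), with bars for the SE of the limma fit over 24 arrays. All circles lie to the right of 0, and 14 of the triangles lie to the left of it.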

How the data were processed

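RNA of 24 rat ventricle samples was hybridised against a reference pool on 2-colour arrays. The authors deposited 1 score per probe and array, read here as a ratio standardised within the array (SD 0.870 to 1.01 in the right ventricle). For scanner, dyes, background correction and normalization, the methods were not given in the sources used here. Probes were named from the platform annotation: 4278 of 4803 had 1 gene symbol, 4 several and 521 none. Entrez identifiers of 4257 were found in RefSeq (GRCr8), and 0 symbols changed. Probes of 1 symbol were averaged, giving 4126 named genes and 4651 features, of which 125 genes had more than 1 probe. Each array was centred on its median. Features needed values on at least 8 of 12 monocrotaline and 4 of 6 control arrays, which left out 1097 named genes that had some value.

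The contrast was the mean of the HYP and CHF means minus the CON mean, with 3 group means, in limma 3.58.1 under R 4.3.3, with Benjamini-Hochberg adjustment over all 2802 features at 0.05. The design had assumed log2 or standardised ratios; the planned limma test was kept for the scores. The left ventricle comparison used 24 arrays in 6 groups (2600 features). The fit was checked on simulated data with independent features and arrays. Those data lack the 2 kinds of array and the correlations seen here, so the check does not cover their effect on the calls. No signal over background comes with the scores, and their precision is limited by how many arrays there are. Python 3.11.15, pandas 2.3.3 and matplotlib 3.10.9 served for tables and plots.

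The comparison and the gene lists were chosen with earlier results of these data known. Named genes were all those called, the tested direction genes, members with the smallest p in each list, up to 5 nearest the threshold and up to 5 downward. Alternatives were: no centring, quantile normalization, 2 group means, named genes only, values on all 18 arrays or on 2 per group, each probe alone, array weights, the sign of CHF arrays 10 and 14 turned or both left out, the first component as a covariate, and each array left out. The kind of array, as a block or alone, was added after seeing the data.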

Additional observations from a re-analysis of the deposited data

Results flagged for a closer look

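Dixon's test looks for 1 array far from the rest of its group and was applied to 173 groups of 4 to 10 arrays of the named genes. It marked 6, or 3.47%, and chance marks about 1 group in 20. None of the 6 belonged to the 17 genes called. Cpt1b stood out in all 3 groups: HYP array 6 was at -0.549 while the others lay between -4.68 and -4.24, CHF array 10 was at 0.041 against -4.11 to -3.55, and CON array 18 was at -3.34 against -0.293 to 0.624. HYP array 6 and CHF array 10 had a median score below 0, and CON array 18 had one above 0. The Cpt1b difference of -2.64 was -0.572 with the kind of array as a block. Prb1 was at -3.07 on CON array 20, with the others between -1.18 and -0.340. Tas2r13 was at 2.50 on HYP array 4, with the others between 0.827 and 1.40. Rpl19, a ribosomal protein, was at -0.383 on HYP array 5, with the others between 0.538 and 0.824.

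The responses of 4 genes differed between the ventricles by a test of the difference itself (limma, adjusted over 2600 features). The right minus left difference was 4.80 for Safb, 3.16 for Tpm3, 4.66 for Maoa and 2.96 for Bdkrb1. In each the right ventricle was higher after monocrotaline on 12 of 12 arrays than on any control array. The left ventricle side rests on 4 against 2 arrays.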

How the results depend on the processing

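The 19 features called became 11 with the sign of CHF arrays 10 and 14 turned, 29 with the kind of array as a block (28 higher, 1 lower, all 19 among them), 0 in the arrays with a median above 0 and 66 in those with a median below 0 (54 higher, 12 lower). Leaving out 1 array at a time gave 11 (without CON array 19) to 26 (without CON array 21, 22 higher and 4 lower), and 12 without CON array 22. The other settings gave 14, with HYP and CHF fitted as 1 group (2 group means), to 28, with the first component as a covariate (25 higher, 3 lower). Array weights gave 25 (22 higher, 3 lower). With 2 group means the calls of Cdk1, Itpka, Dynlt1 and Kcnh5 ended. For Safb, Tpm3, Capn3, Ocm, Acta1, Maoa, Bdkrb1, Cav3 and Acta2 the call ended in 1 of 31 alternatives, the arrays with a median above 0, and in 0 of 18 that left out an array. That of Fgb also ended with the sign turned (1.21) and without CON array 19 (1.41). Those of Cdk1, Itpka, Pvalb, Dynlt1, Anxa1 and Kcnh5 ended in 5, 6, 6, 8, 8 and 13 of the 31. The 31 do not include the fit of each probe alone. In that fit the Acta2 probes at 0.197 and 0.116 did not pass (each adjusted p = 0.968 by limma), and that at 3.60 did. The 0 features called between CHF and HYP became 1 with array weights, and 0 to 1 when 1 array was left out. The 12 features without overlap became 5 (0.178%) with the sign turned.

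Some genes that were not called changed sign: Dcn (0.0031) and Decr1 (0.151) in the arrays above 0, Atp2a2 (-0.207 and -0.375) and Ryr2 (-0.0072 and -0.109) with the sign turned and in the arrays above 0. With the block, above 0 and below 0, Col3a1 was at 0.175, 0.169 and 0.179, Timp1 at 0.305, 0.338 and 0.279 and Myh6 at 0.545, 0.0621 and 0.908. Without 1 array Myh6 ran from -0.406 to 0.0421, above 0 without CHF array 11, CHF array 15 or CON array 20. The cause was not tested. The right ventricle groups share no replicate numbers, so no paired fit was possible within them. Between the ventricles, the replicate block (consensus correlation 0.239) raised the 5 features called for right minus left to 9; the labels do not state that a shared number is a shared animal.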

Other observations

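With the kind of array as a block, 10 features passed that had not passed without it. The named ones were Vom2r18, a vomeronasal receptor, at 3.24, Gorasp2, a Golgi stacking protein, at 2.54, Prl6a1, of the prolactin family, at 1.59, Mybpc1 at 3.37 (0.738 with CHF arrays 10 and 14 turned) and Hmgb2, a chromatin protein of dividing cells, at 1.42 array SDs, all higher in the monocrotaline groups. The other 5 were probes without a gene name, of which 1 was lower, at -1.14. Among the 19 features called without the block, 2 were also probes without a gene name, at 1.97 and 1.03, and the first of these did not overlap with the controls.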
